A study of Homo sapiens with 6 samples.

Results

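The genes described here encode the enzymes that make cholesterol and fatty acids, together with the regulators that set their transcription. They were chosen as a fixed list of 31 symbols, and all 31 were found among the 17356 gene rows of each library. The list holds 17 enzymes of sterol synthesis, 8 enzymes of fatty acid synthesis and desaturation, 5 regulators of the SREBP transcription factors and 1 sterol transport gene, STARD4. RNA-seq values came from 6 libraries of C4-2B-ENZR, a human prostate cancer cell line resistant to enzalutamide, an inhibitor of the androgen receptor. In 3 libraries the cells had received a negative control siRNA (NC), and in the other 3 an siRNA against KIF15 (siKIF15), a kinesin motor of the mitotic spindle. All cells grew in medium with fetal bovine serum, penicillin and streptomycin, and the labels give no siRNA sequence, siRNA dose, time after transfection or drug exposure. Separate cultures are not stated for libraries of 1 group, so p-values speak only to the spread among the 6 libraries, which may be technical.

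Cells build cholesterol from acetyl-CoA through the mevalonate pathway, and build fatty acids from the same precursor through acetyl-CoA carboxylase and fatty acid synthase. Both branches are transcribed under SREBP factors, which sit in the endoplasmic reticulum bound to the escort protein SCAP and are held there by INSIG proteins when sterols are plentiful. When sterols are scarce, SCAP carries SREBP to the Golgi, where proteases release its active part. SREBP2, from SREBF2, is best known for driving sterol genes and SREBP1, from SREBF1, for driving fatty acid genes. In prostate cancer cells androgens are known to raise lipid synthesis, and FASN is often abundant.

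The targeted transcript was measured first. KIF15 stood at 366.4, 403.6 and 319 in NC 1 to 3 and at 294.8, 333.1 and 363 in siKIF15 1 to 3. The groups overlapped, and the log2 change of -0.13 ± 0.14 (SE; 95% interval -0.43 to 0.16, limma adjusted p = 0.565) was within the spread between libraries. The transcript level thus goes against the label, and siKIF15 means throughout a library labelled as KIF15 knockdown. The values are the deposited signal per gene, which summed to between 49460840 and 53157388 per library, and the sequencing depth is unknown. Luminal prostate markers were abundant (KLK3, which encodes prostate-specific antigen, at 62253 to 72706), whereas all 4 measured leukocyte markers together summed to 22.6 to 40.7 in NC and 7.5 to 34.9 in siKIF15. The 5 fibroblast, 3 endothelial and 4 basal markers summed to at most 363.3, 414.5 and 62.5 in any library, and PTPRC, the common leukocyte antigen, was listed at 0 in the 3 siKIF15 libraries. In bulk RNA, fewer cells of a type and less RNA per cell cannot be told apart.

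The 3 siKIF15 libraries differed from each other in base composition. Genes rich in GC stood above their siKIF15 mean in siKIF15 1 and 2 and below it in siKIF15 3, with Spearman correlations across 16035 genes of 0.33, 0.33 and -0.49. The correlations with length of the transcript were 0.02, -0.40 and 0.34, and genes are not independent replicates. Deviations from a group's own mean sum to 0 in each gene, so opposite signs are partly built in. Measured from the NC mean, siKIF15 1, 2 and 3 correlated with GC content at 0.32, 0.31 and -0.07, and with length at -0.21, -0.35 and -0.04. Within NC the GC correlations were 0.12, -0.19 and 0.11 in NC 1, 2 and 3. Results are therefore given also after a correction for GC content and length, and without siKIF15 3 where that changes a call.

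Promoters of 4 genes are shown to compare which of 3 motifs they hold, namely a core through which SREBP is known to act, the CCAAT box of its partner NF-Y and an E-box, in genes whose log2 changes differed in sign. FDPS makes farnesyl diphosphate, MSMO1 removes methyl groups from the sterol ring, SCD desaturates fatty acids, and INSIG1 retains SREBP. Each window runs 5′ to 3′ over 300 bases, from 250 before to 50 after the RefSeq start of the gene (GRCh38.p14), and capitals mark matches to TCACNCNAC, CCAAT or CACGTG on either strand.
FDPS (chr1:155308616-155308915, + strand): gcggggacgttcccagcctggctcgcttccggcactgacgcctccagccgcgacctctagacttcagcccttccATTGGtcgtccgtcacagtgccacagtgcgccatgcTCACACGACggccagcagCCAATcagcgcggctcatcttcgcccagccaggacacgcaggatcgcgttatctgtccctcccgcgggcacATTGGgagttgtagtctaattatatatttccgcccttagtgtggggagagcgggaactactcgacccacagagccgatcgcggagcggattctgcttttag
MSMO1 (chr4:165327419-165327718, + strand): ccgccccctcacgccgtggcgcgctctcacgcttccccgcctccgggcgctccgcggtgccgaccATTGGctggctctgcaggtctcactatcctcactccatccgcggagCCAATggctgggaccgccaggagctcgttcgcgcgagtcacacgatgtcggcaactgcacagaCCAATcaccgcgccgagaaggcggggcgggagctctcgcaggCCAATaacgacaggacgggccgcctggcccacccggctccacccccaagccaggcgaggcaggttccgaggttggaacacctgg
SCD (chr10:100346983-100347282, + strand): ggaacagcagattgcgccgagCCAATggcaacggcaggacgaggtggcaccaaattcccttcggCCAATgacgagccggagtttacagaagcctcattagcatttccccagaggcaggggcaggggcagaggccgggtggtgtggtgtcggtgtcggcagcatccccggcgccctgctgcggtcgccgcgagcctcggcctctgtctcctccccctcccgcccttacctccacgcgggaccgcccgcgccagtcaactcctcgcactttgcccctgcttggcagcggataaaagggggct
INSIG1 (chr7:155297628-155297927, + strand): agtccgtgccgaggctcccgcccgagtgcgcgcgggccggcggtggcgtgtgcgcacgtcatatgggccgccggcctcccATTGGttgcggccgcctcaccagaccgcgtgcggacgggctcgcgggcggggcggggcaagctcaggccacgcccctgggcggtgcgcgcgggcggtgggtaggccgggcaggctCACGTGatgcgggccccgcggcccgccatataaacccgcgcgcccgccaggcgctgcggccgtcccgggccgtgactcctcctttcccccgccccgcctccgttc
In FDPS, the letters TCACACGAC, a form of the sterol regulatory element core, begin 140 bases before the start, and CCAAT boxes, where NF-Y binds, begin 176, 122 and 51 bases before it. MSMO1 holds 4 CCAAT boxes and SCD holds 2, and neither window holds TCACNCNAC or CACGTG. INSIG1 holds 1 CCAAT box and the E-box CACGTG, beginning 55 bases before the start.

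RefSeq windows were found for 28 of the 31 genes; FDFT1, SQLE and FASN had no entry. A CCAAT box in at least 1 window was held by 13 of 15 sterol enzymes, 5 of 7 fatty acid enzymes, 2 of 5 regulators and STARD4, against 39.7% of all 27305 genes with a window. TCACNCNAC was held by 2 sterol enzymes (FDPS and HSD17B7), 2 fatty acid enzymes (ACSS2 and FADS2) and SREBF2, against 3.13% of all genes. CACGTG was held by LSS, SC5D, SCAP and INSIG1, against 8.77% of all genes. The 3 motifs share no overlapping match in the printed windows. A match is a description of letters, not of a site in use.

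Of 7 tested fatty acid enzymes, 3 fell (SCD, FASN and ACACA) and none rose, where 8.33% of all tested genes fell and 9.66% rose (18.0% in either direction). Scaling the libraries to equal totals turned the split over all genes from 1599 of 2978 called genes higher to 1205 of 2958. Of 17 sterol enzymes, 1 fell (MSMO1) and 1 rose (FDPS). The median log2 change was -0.25 over the tested fatty acid enzymes and -0.02 over the sterol enzymes, beside 0 over all 16548 genes tested. By library, the fatty acid median relative to the NC mean was -0.15, -0.31 and -0.15 in siKIF15 1, 2 and 3, and the sterol median was -0.05, 0.08 and 0.01. In the NC libraries both medians lay between -0.02 and 0.04. These centre near 0 by construction, because each gene is measured from the mean of the same NC libraries.

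All 7 tested fatty acid enzymes had a log2 change below 0, from -0.31 to -0.02. In 5 of the 7 every siKIF15 library lay below every NC library, where the groups stood apart in that direction for 16.5% of all tested genes (18.3% in the other, 34.8% in all). The sterol enzymes ranged from -0.21 to 0.27, with 7 above and 10 below 0, and the groups stood apart for 3 of 17. The difference between the branch medians was 0.10, 0.39 and 0.16 in siKIF15 1, 2 and 3, and 0.01, 0.05 and -0.04 in NC 1, 2 and 3. The NC differences also centre near 0 by construction. The difference was largest in siKIF15 2. The members of a branch are not replicates, so the difference between branches carries no test.

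**Figure D1:**
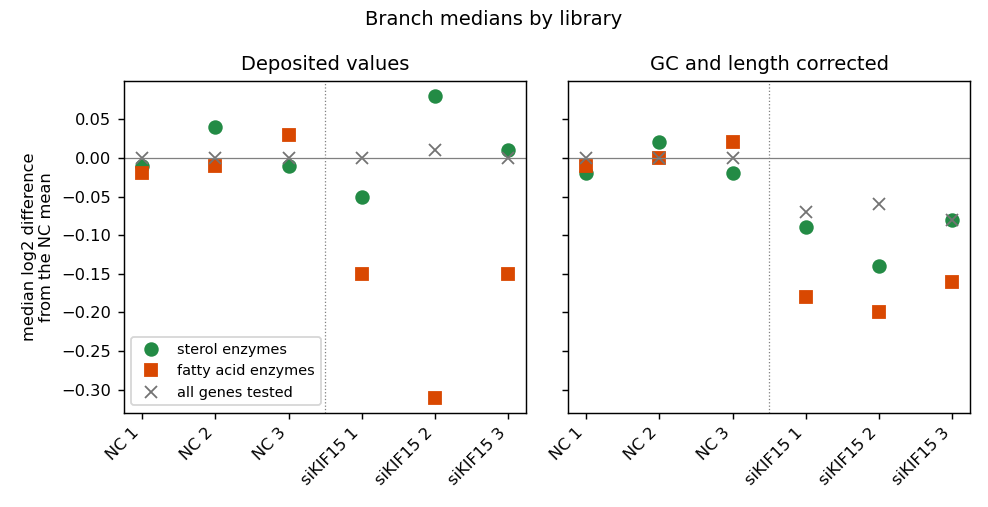
Median log2 difference from the NC mean over the 17 sterol enzymes, the 7 tested fatty acid enzymes and all tested genes, for each library (horizontal axis), from the deposited values (left) and corrected for GC and length of the transcript (right). The fatty acid medians of the siKIF15 libraries lie at -0.15, -0.31 and -0.15 on the left, and at -0.18, -0.20 and -0.16 on the right, where the all-gene medians lie at -0.07, -0.06 and -0.08.

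Among the fatty acid enzymes, SCD, the desaturase that makes oleate, had the smallest adjusted p. It stood at 23317, 21365 and 23758 in NC 1 to 3 and at 18866, 17058 and 19420 in siKIF15 1 to 3. Every siKIF15 library was below every NC library, and SCD fell by 19.2% (log2 change -0.31 ± 0.07 SE, limma adjusted p = 0.00873). Its call ended without NC 1, NC 3 or siKIF15 1 (adjusted p = 0.0618, 0.0723 and 0.0614), at log2 changes between -0.35 and -0.25 over the fits that left out 1 library.

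FASN, the synthase that builds palmitate, was the most abundant fatty acid enzyme. Its values were 100676, 100469 and 103397 across NC against 91691, 79300 and 81984 across siKIF15. The NC libraries lay close together and every siKIF15 library lay below them. FASN fell by 17.1% (log2 change -0.27 ± 0.08 SE, adjusted p = 0.0303). Only the fit without siKIF15 3 kept the call (0.0195) among those that left out 1 library, and the others gave adjusted p from 0.0522 to 0.139.

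ACACA encodes acetyl-CoA carboxylase, the committed step of fatty acid synthesis. It measured 19376, 19473 and 20516 across NC against 17347, 14257 and 17887 across siKIF15. The groups did not overlap, siKIF15 2 was lowest, and ACACA fell (log2 change -0.27 ± 0.08 SE, adjusted p = 0.0347). The call ended without each library other than siKIF15 3 (adjusted p from 0.0973 to 0.155; log2 change -0.17 without siKIF15 2) and held without siKIF15 3 (adjusted p = 0.00421).

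The other fatty acid enzymes did not pass. ELOVL6, which lengthens palmitate to stearate, measured 1998, 2109 and 2027 across NC against 1599, 1652 and 1912 across siKIF15, with no overlap (log2 change -0.25, 95% interval -0.43 to -0.07, adjusted p = 0.0521; 0.00202 without siKIF15 3). ACLY, which splits citrate to give acetyl-CoA, measured 19176, 19415 and 19845 across NC against 18769, 16846 and 18276 across siKIF15, again without overlap (log2 change -0.12, interval -0.26 to 0.03, adjusted p = 0.259). The fatty acid desaturases FADS1 and FADS2, neighbouring genes on chromosome 11, overlapped between the groups. Their log2 changes were -0.02 (interval -0.16 to 0.12) and -0.06 (interval -0.21 to 0.09).

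ACSS2, which makes acetyl-CoA from acetate, was the 1 member not tested. It was listed at 0 in NC 1, NC 2 and all siKIF15 libraries and at 1.9 in NC 3. ACSS2 lies on chromosome 20, and of 255 listed genes of that chromosome none had a mean above 100, with a median of 1.64. On the other 21 autosomes, medians were 547 to 1510 and 63.3% to 72.3% of the genes were above 100. The value of ACSS2 is therefore not read as absence of its transcript.

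**Figure D2:**
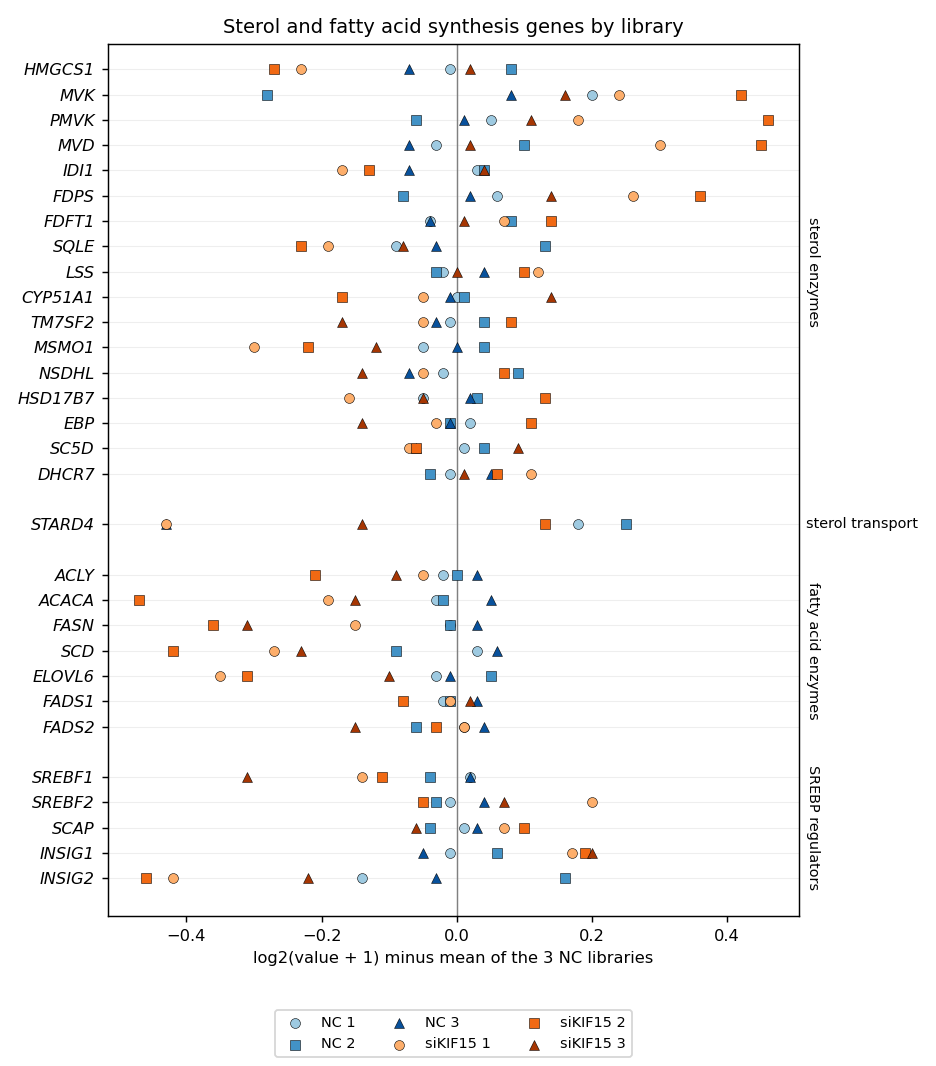
Log2(value + 1) of each of the 30 tested genes minus the mean of the 3 NC libraries (horizontal axis), with genes in pathway order and 1 point per library. For SCD, FASN, ACACA, ELOVL6 and ACLY, and also for MSMO1, SREBF1 and INSIG2, all siKIF15 points lie left of all NC points. For FDPS, PMVK and INSIG1 all lie to the right.

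The sterol branch was also read in its early and late steps. The 7 enzymes from HMGCS1 to FDFT1, which take acetoacetyl-CoA to squalene, had a median log2 change of 0.25, with 1 higher and none lower by the limma test (4 and 0 at an unadjusted p of 0.05, a level that 2591 of all 16548 genes passed as higher and 2475 as lower). The 10 enzymes from SQLE to DHCR7, which turn squalene into cholesterol, had a median of -0.03, with 1 lower and none higher (1 and 0 at an unadjusted p of 0.05). After the GC and length correction the early median was -0.03, with 1 of 7 lower. The late median was -0.21, with 7 of 10 lower. The all-gene median was then -0.08, and 21.4% of all genes were lower, 10.3% higher and 31.7% either. With each library also centred on the all-gene median, chosen after seeing the data, the early median was 0.04, with none of 7 lower. The late median was then -0.14, with 4 of 10 lower, where 12.8% of all genes were lower, 14.6% higher and 27.4% either. The difference between the early and late medians was not tested.

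FDPS makes farnesyl diphosphate, the precursor of squalene and of protein prenyl groups. It measured 5272, 4767 and 5135 across NC against 6071, 6480 and 5586 across siKIF15. Every siKIF15 library was above every NC library, and FDPS rose by 19.4% (log2 change 0.26 ± 0.07 SE, adjusted p = 0.0264). After the GC and length correction FDPS was at -0.01 (adjusted p = 0.905). The call ended also with libraries scaled to equal totals (adjusted p = 0.061) and without any 1 library other than siKIF15 3 (0.064 to 0.153). RefSeq lists 10 pseudogenes named after FDPS, and how reads shared with such copies were counted is not given in the sources used here.

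MSMO1, the sterol methyl oxidase, measured 10389, 11063 and 10761 across NC against 8691, 9190 and 9905 across siKIF15. Every siKIF15 library lay below every NC library, and MSMO1 fell by 13.8% (log2 change -0.21 ± 0.07 SE, adjusted p = 0.0431). Its call also ended without each library other than siKIF15 3 (adjusted p from 0.0634 to 0.204).

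The 3 remaining enzymes between mevalonate and isopentenyl diphosphate had point estimates close to that of FDPS without passing. PMVK, phosphomevalonate kinase, measured 3215, 2978 and 3132 across NC against 3531, 4276 and 3362 across siKIF15, with no overlap (log2 change 0.25, adjusted p = 0.058). MVD, which yields isopentenyl diphosphate, measured 1918, 2101 and 1874 across NC against 2422, 2689 and 1989 across siKIF15 (log2 change 0.26, adjusted p = 0.0899). MVK, mevalonate kinase, overlaps MMAB in RefSeq, and its values of 2497, 1792 and 2297 across NC and 2563, 2911 and 2433 across siKIF15 gave a log2 change of 0.27 (adjusted p = 0.10). In PMVK, MVD, MVK and FDPS alike siKIF15 2 was highest and siKIF15 3 lowest of the siKIF15 libraries. Without siKIF15 3, PMVK, MVD and MVK passed (adjusted p = 0.00661, 0.00177 and 0.0426), as did 30.6% of all genes in that fit, 15.3% in each direction. MVK was at 0.13 without NC 2, and MVD and PMVK were at 0.16 and 0.15 without siKIF15 2.

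HMGCS1 and SQLE are sterol-responsive enzymes at the entry of the pathway and at its first oxygen-requiring step. HMGCS1 measured 4217, 4461 and 4031 across NC against 3603, 3505 and 4296 across siKIF15, so that siKIF15 3 lay within the NC range (log2 change -0.16, adjusted p = 0.21). SQLE measured 2448, 2847 and 2547 across NC against 2285, 2217 and 2463 across siKIF15 (log2 change -0.17, adjusted p = 0.171). Without siKIF15 3 both passed as lower (adjusted p = 0.00686 and 0.0408), as did 15.3% of all genes in that fit (30.6% in either direction).

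The remaining 10 sterol enzymes had uncorrected log2 changes between -0.08 and 0.07. IDI1, the isopentenyl diphosphate isomerase, had a log2 change of -0.08 (interval -0.24 to 0.07), and FDFT1, squalene synthase, 0.07 (interval -0.08 to 0.22). LSS, which closes the sterol ring, stood at 0.07, the lanosterol demethylase CYP51A1 at -0.03, the sterol reductase TM7SF2 at -0.04 and DHCR7, the last reductase of the pathway, at 0.06. NSDHL, HSD17B7, EBP and SC5D, which act between lanosterol and the final reductions, lay from -0.04 to -0.01. For these 10 genes the groups overlapped, and adjusted p ranged from 0.487 to 0.93. After the GC and length correction 5 of them passed as lower, where 21.4% of all genes did and the all-gene median was -0.08. They were TM7SF2 (-0.26), EBP (-0.24), HSD17B7 (-0.24), NSDHL (-0.21) and DHCR7 (-0.11). With each library also centred on the median of all genes, only TM7SF2 and EBP of these passed (adjusted p = 0.00342 and 0.00767). STARD4, a carrier of cholesterol between membranes, was low at 70.7 to 114.1 and its interval was wide (log2 change -0.14, interval -0.66 to 0.37).

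Among the 5 regulators, INSIG2 fell and the others did not pass, where 8.33% of all tested genes fell and 9.66% rose. INSIG2, which retains SCAP and SREBP in the endoplasmic reticulum, measured 1175, 1449 and 1272 across NC against 970, 938 and 1107 across siKIF15. The groups did not overlap, and INSIG2 fell by 22.5% (log2 change -0.37 ± 0.10 SE, adjusted p = 0.0205). Leaving out NC 2, NC 3 or either of siKIF15 1 and 2 ended the call, at adjusted p = 0.142, 0.0695, 0.127 and 0.0588. With no variance trend in the limma fit, none of SCD, FASN, ACACA, FDPS, MSMO1 and INSIG2 passed, where 1070 of 16548 genes did.

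Its relative INSIG1, itself a target of SREBP, measured 7769, 8203 and 7567 across NC against 8835, 8954 and 9000 across siKIF15. The siKIF15 libraries lay close together and above all NC libraries, but INSIG1 did not pass (log2 change 0.19, interval 0.05 to 0.33, adjusted p = 0.0575). It passed as higher without siKIF15 3 (adjusted p = 0.0238), as did 15.3% of all genes in that fit. SREBF1 measured 56308, 53771 and 56325 across NC against 50354, 51238 and 44694 across siKIF15, with no overlap and siKIF15 3 lowest (log2 change -0.19, interval -0.35 to -0.03, adjusted p = 0.104). SREBF2 (log2 change 0.08, interval -0.08 to 0.23) and the escort gene SCAP (0.04, interval -0.11 to 0.18) overlapped between the groups.

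**Figure D3:**
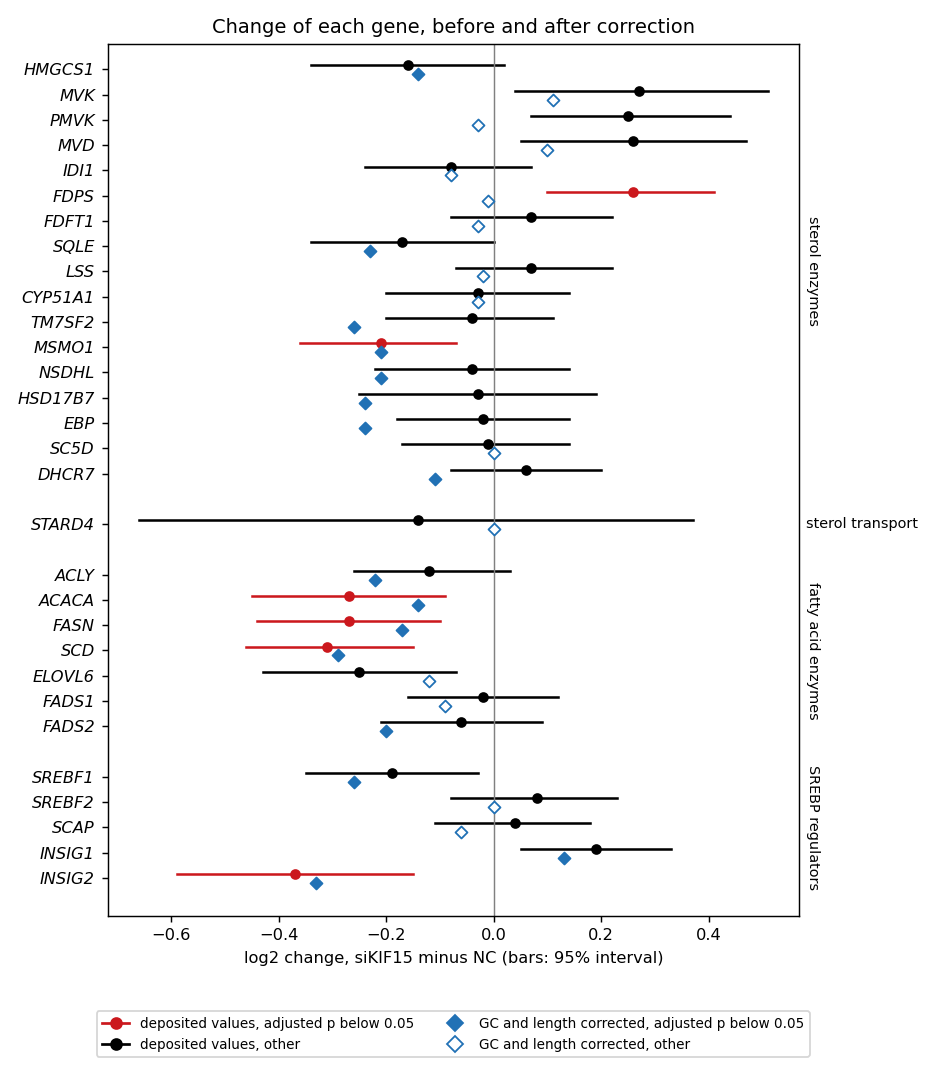
Log2 change of siKIF15 minus NC for each tested gene, with its 95% interval (circles and bars, red where the adjusted p is below 0.05), and the same after correction for GC content and length (diamonds, filled where the adjusted p is below 0.05). Under the correction FDPS moves from 0.26 to -0.01, ACACA from -0.27 to -0.14 and FASN from -0.27 to -0.17, while SCD (-0.31 to -0.29) and MSMO1 (-0.21 in both) move little.

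The correction for GC content and length moved members of both branches. In each library, the deviations of genes from their means over the 6 libraries were regressed on GC content and log2 length of the transcripts. The fitted part was subtracted, which left an all-gene median log2 change of -0.08. FDPS and PMVK, with short transcripts of 1478 and 1280 bases and GC content of 55.1% and 59.5%, were then at -0.01 and -0.03. The median GC content of all tested genes was 49.7%. GC content and length were fitted together, and their parts in the correction were not separated. MVD and MVK were at 0.10 and 0.11 (adjusted p = 0.248 and 0.38). No sterol enzyme was higher, and 8 of 17 were lower, namely HMGCS1, SQLE, TM7SF2, MSMO1, NSDHL, HSD17B7, EBP and DHCR7, where 21.4% of all genes were lower, 10.3% higher and 31.7% either. MSMO1 held at -0.21 (adjusted p = 0.00101).

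Of the fatty acid enzymes 5 of 7 were lower after the correction, where 21.4% of all genes were. They were SCD (-0.29), ACLY (-0.22), FADS2 (-0.20), FASN (-0.17) and ACACA (-0.14), and ELOVL6 was at -0.12 (adjusted p = 0.132). INSIG2 (-0.33) and SREBF1 (-0.26) were lower and INSIG1 (0.13) was higher. The branch medians were then -0.17 for fatty acids and -0.08 for sterols, so the difference between them went from 0.23 to 0.09. By library this difference was 0.09, 0.06 and 0.09 in siKIF15 1, 2 and 3. With each library also centred on the median of all genes, an alternative chosen after seeing the data, 4 sterol enzymes (SQLE, TM7SF2, MSMO1 and EBP) and 3 fatty acid enzymes (SCD, ACLY and FADS2) were lower and none was higher, where 12.8% of all genes were lower, 14.6% higher and 27.4% either. FASN and ACACA did not pass there (-0.10 and -0.07, adjusted p = 0.067 and 0.205).

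Across the 17 sterol enzymes, the uncorrected log2 change had a Spearman correlation of 0.68 with GC content and -0.24 with length. Across the 7 fatty acid enzymes these were 0.21 and -0.64. The points share the same 6 libraries, and the values are descriptions. The fatty acid enzymes had longer transcripts, with a median of 5360 bases against 2460 for the sterol enzymes and 3230 for all tested genes.

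Levels were compared between genes per kilobase of their longest GENCODE protein-coding transcript. In NC, TM7SF2 (13910 per kb), SREBF1 (13042), FASN (11852), FADS2 (8448) and FDFT1 (8172) were the most abundant members on this scale, which takes the deposited values as not yet divided by length. SCD (4255) and ACACA (1987) stood lower, and STARD4 (21.3), ELOVL6 (316.8) and INSIG2 (501.4) were the least abundant of the tested members. These are levels, not differences, and they depend on which transcript the cells use.

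**Figure D4:**
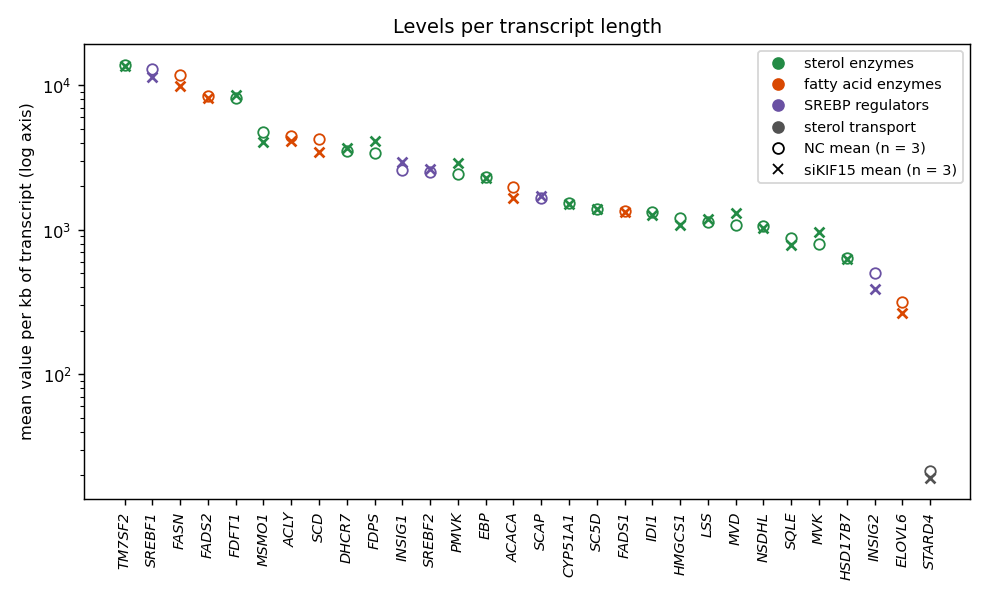
Mean value per kilobase of transcript for the 30 tested genes on a log axis, with NC means as open circles and siKIF15 means as crosses (n = 3 each), ordered by the NC level and coloured by branch. Genes of both branches are spread over the range, from 13910 per kb for TM7SF2 to 21.3 for STARD4 in NC.

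Genes next to these pathways were read from 5 further lists. Of 78 tested genes in them 8 rose and 12 fell (25.6%), beside the 18.0% over all tested genes. Among 25 other genes of fatty acid synthesis, elongation and activation, 3 rose (ACSL5, DGAT2 and ELOVL1) and 7 fell, with a median of -0.04. Of all tested genes 9.66% rose and 8.33% fell. ELOVL7 and ELOVL5, elongases of long-chain and polyunsaturated fatty acids, fell (log2 changes -0.51 ± 0.08 and -0.36 ± 0.07 SE, adjusted p = 0.000561 and 0.00225). Both passed in each of the 6 fits without 1 library. After the GC and length correction 3 of the 25 were higher and 14 lower, where 10.3% and 21.4% of all genes were.

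The acyl-CoA synthetase gene ACSL5 had the largest change of these lists. It measured 25.1, 48.4 and 29.3 across NC against 141.2, 139 and 172.1 across siKIF15, a 4.45-fold rise (log2 change 2.15 ± 0.27 SE, adjusted p = 4e-05). ACSL1, a related synthetase, fell by 15.3% and LPIN1, which makes diacylglycerol, fell by 16.6% (adjusted p = 0.0223 and 0.0299). DGAT2, which makes triglycerides, rose 1.26-fold (adjusted p = 0.00365), and ELOVL1 rose by 18.5% (adjusted p = 0.0238) but stood at -0.00379 on the log2 scale after the correction. ACSL5 and DGAT2 passed in each fit without 1 library, whereas ACSL1, LPIN1 and ELOVL1 lost their calls in 4, 5 and 5 of the 6.

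Of 16 tested genes of the machinery that processes SREBP, 1 rose and 3 fell, with a list median of -0.01, beside 9.66% and 8.33% of all genes. C12orf49, which SREBP activation is known to need, measured 3353, 3548 and 3458 across NC against 2405, 2214 and 2473 across siKIF15, and fell by 31.6% (log2 change -0.55 ± 0.07 SE, adjusted p = 9.53e-05). MBTPS2, a Golgi protease that helps to release SREBP, fell from a mean of 2267 to 1687 (adjusted p = 0.00493), and PAQR3, a Golgi anchor of the SCAP complex, fell by 27.3% (adjusted p = 0.0038). ERLIN1, a membrane protein that restrains SREBP, rose by 40.6%, from 1724, 1782 and 1778 to 2452, 2462 and 2517 (adjusted p = 0.000241). C12orf49, PAQR3 and ERLIN1 passed in each fit without 1 library. MBTPS2 lost its call without NC 2 or siKIF15 1 (adjusted p = 0.0565 and 0.073). PAQR3, with a transcript of 9811 bases and GC content of 34.9%, was at -0.16 after the correction (adjusted p = 0.126).

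Intracellular sterol transport held the change with the smallest adjusted p of these 5 lists. NPC1, which exports cholesterol from lysosomes, measured 4976, 5447 and 5220 across NC against 3412, 3123 and 3368 across siKIF15. The groups lay far apart, and NPC1 fell by 36.7% (log2 change -0.66 ± 0.07 SE, adjusted p = 8.83e-06; -0.69 after the correction). OSBPL1A, a sterol-binding protein of late endosomes, fell by 22.7% (adjusted p = 0.00532), and LIPA, the lysosomal cholesteryl ester hydrolase, rose by 18.9% (adjusted p = 0.0238). CYP27A1, a sterol hydroxylase, and GRAMD1B, a sterol carrier, rose from means of 5.2 and 15.2 to 17.3 and 42.7 (adjusted p = 0.0338 and 0.0174), values near the floor. In all 3 of 14 tested genes rose and 2 fell, beside 9.66% and 8.33% of all genes. NPC1 and OSBPL1A passed in each fit without 1 library, and LIPA, CYP27A1 and GRAMD1B lost their calls in 4, 4 and 3 of the 6. CH25H, which makes an oxysterol that holds back SREBP, was not analysed here.

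Of 15 tested enzymes in the list of other sterol and isoprenoid genes, none passed by limma, with a median of -0.05. At an unadjusted p of 0.05 the counts were 1 higher and 2 lower (2591 and 2475 of all 16548 genes), and after the correction 4 were lower and none higher (21.4% and 10.3% of all genes). Of 8 genes of the liver X receptor axis, which drives sterol efflux, NR1H2 rose and none fell, beside 9.66% and 8.33% of all genes. NR1H2, a receptor for oxysterols, measured 6002, 5710 and 6118 across NC against 7223, 7457 and 6371 across siKIF15 (log2 change 0.24 ± 0.07 SE, adjusted p = 0.0367). Its call ended without each library other than siKIF15 3, and after the correction it was at 0.06 (adjusted p = 0.308).

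**Figure D5:**
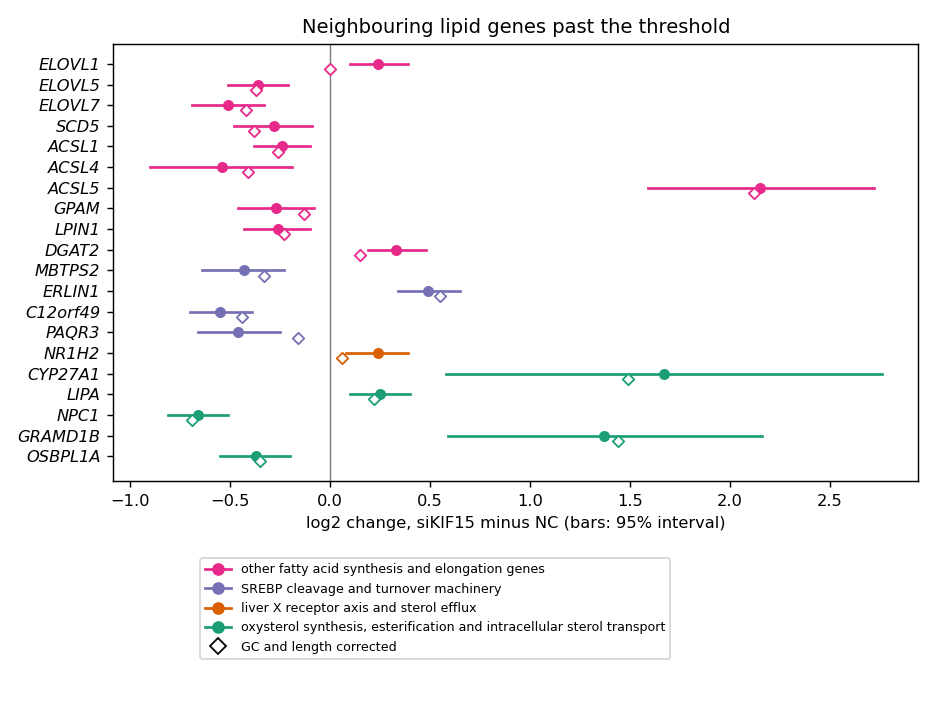
Log2 change of siKIF15 minus NC with its 95% interval for the 20 genes past the threshold in the 5 further lists, coloured by list, with the value after GC and length correction as an open diamond. ACSL5 lies at 2.15 and NPC1 at -0.66, and both diamonds lie beside their circles, while ELOVL1, PAQR3 and NR1H2 move toward 0.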

How the data were processed

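RNA-seq was read from 6 libraries, 3 NC and 3 siKIF15, grouped by sample title. Bowtie 0.12.2 is named in the submitters' processing notes, which give mm8 and mm9 (mouse) as builds for these human cells. Counter, human build and annotation are not given in the sources used here. Each deposited file lists a signal per gene symbol on a scale that no header states, so depth is unknown and no count model was used. Log2(value + 1) was tested with limma 3.58.1 (R 4.3.3, variance trend, no covariate) over 16548 genes whose mean reached 1 in either group, with Benjamini-Hochberg adjustment over all of them and a threshold of 0.05, after the script was tested on simulated data. Of the symbols, 16432 matched RefSeq (GRCh38.p14) by symbol and 598 by synonym; lengths and GC content came from GENCODE 29 (16760 genes). The correction fitted splines with 5 degrees of freedom in GC content and log2 length to each library's deviations from the gene means. It was fitted on genes with a mean of at least 10. The alternatives were pseudocounts, filters, scalings, the variance prior, library weights, a replicate block and leaving out each library. Text names all 31 members, up to 4 called genes per direction of each other list, and KIF15 and NR1H2. Members and lists were chosen with earlier results of these data known.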

Additional observations from a re-analysis of the deposited data

How the results depend on the processing

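The calls of single members were sensitive to the processing. Over 19 alternatives for each of 30 tested members, 451 of 570 values kept direction and side of the threshold, and 28 changed sign. Of the values that kept their sign, 53 passed in addition and 38 no longer passed. Sign changes of FDPS and DHCR7 that also changed a call are counted only among the 28. For each, the cause was not tested. The main counts were 2978 genes called, 1 sterol enzyme higher and 1 lower, and 3 fatty acid enzymes lower, with branch medians of -0.02 and -0.25. Without single libraries these ranged from 1184 to 5077 genes, 0 to 4 sterol enzymes higher, 0 to 3 lower and 0 to 4 fatty acid enzymes lower, with a fatty acid median of -0.27 to -0.17. The sterol minus fatty acid median stayed between 0.18 and 0.27 there, and no fatty acid enzyme was higher in any alternative. GC and length correction gave 5087 genes, 0 and 8 sterol enzymes higher and lower, 5 fatty acid enzymes lower, medians of -0.08 and -0.17 and a difference of 0.09; with the replicate block added it gave 5186 genes and the same member counts, 0, 8 and 5, medians (-0.08 and -0.17) and difference (0.09). With median centring in addition to the correction, 0 and 4 sterol enzymes were higher and lower, the fatty acid median was -0.10 and the difference 0.09. Libraries scaled to equal totals gave 0 sterol enzymes higher and a sterol median of -0.08, against an all-gene median of -0.06. Estimated library weights gave 7502 genes, 5 and 4 sterol enzymes higher and lower and a fatty acid median of -0.17. Without the variance trend there were 1070 genes, 0 and 0 sterol enzymes and 0 fatty acid enzymes lower. The replicate block alone gave 4 sterol enzymes higher and 0 lower (MSMO1, adjusted p = 0.0516). Same-numbered libraries did not deviate together (correlations of 0.03, -0.14 and 0), no library correlated best with its own number (NC 1 with siKIF15 2, 0.26; NC 2 with siKIF15 3, 0.21; NC 3 with siKIF15 1, 0.15), and the numbers were not used as pairs. Sign changes under the correction, with and without the block, were PMVK and FDFT1 (-0.03), FDPS (-0.00776), LSS (-0.02), DHCR7 (-0.11), SCAP (-0.06) and, among the other lists, ELOVL1 (-0.00379). With centring they were CYP51A1 (0.04), SC5D (0.07), DHCR7 (-0.04) and STARD4 (0.06); with quantile normalization FDFT1 (-0.01); with equal totals SCAP (-0.02). Without single libraries CYP51A1 ranged from -0.11 to 0.04, TM7SF2 from -0.11 to 0.02, NSDHL from -0.10 to 0.0097, HSD17B7 from -0.11 to 0.04, EBP from -0.09 to 0.04, SC5D from -0.06 to 0.01 and FADS1 from -0.05 to 0.00504. Leaving out chromosome 20 genes, chosen after seeing the data, moved no member. Depth is unknown, so no counting limit can be given.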

Other observations

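Of 8 luminal prostate markers 3 rose and 1 fell, where 9.66% and 8.33% of all genes did, and KLK3, HOXB13, FOLH1 and EPCAM did not pass (adjusted p = 0.495, 0.492, 0.0713 and 0.824). The kallikrein gene KLK2 rose by 51.2% (log2 change 0.60 ± 0.08 SE, limma adjusted p = 5.43e-05) and KRT8 and KRT18, the luminal keratins, rose by 27.0% and 21.1% (adjusted p = 0.00911 and 0.0261), while TMPRSS2 fell by 13.5% (adjusted p = 0.0343). KLK2 passed in each fit without 1 library, KRT8 lost its call without NC 2 or siKIF15 1, and KRT18 and TMPRSS2 lost theirs in 5 and 4 of the 6. After the GC and length correction KRT18 was at 0.03 (adjusted p = 0.663) and TMPRSS2 at -0.35. KLK3 (-0.16, adjusted p = 0.00538) and HOXB13 (-0.25, adjusted p = 0.000461) were then lower and FOLH1 (0.16, adjusted p = 0.00704) was higher. EPCAM did not pass there either (adjusted p = 0.0931). The list then held 3 higher and 3 lower, where 10.3% and 21.4% of all genes were. Of 4 basal markers 1 rose and 0 fell, beside the same shares of all genes. The basal keratin KRT14 rose from a mean of 9.9 to 46.1, values near the floor (adjusted p = 0.00518), and its call ended without siKIF15 1 (adjusted p = 0.0865). KRT5, KRT15 and TP63 did not pass (adjusted p = 0.126, 0.463 and 0.618). None of the tested fibroblast, leukocyte, endothelial and adipocyte markers passed by limma, also at an unadjusted p of 0.05.

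In RefSeq, MVK overlaps MMAB, IDI1 overlaps WDR37, FADS1 overlaps FADS2, SREBF1 overlaps RAI1 and ACACA overlaps C17orf78. Strand is not stated, so reads from bases that such a pair shares cannot be told apart. Pseudogenes named after IDI1, CYP51A1, HSD17B7 and SCD number 3, 3, 2 and 1.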
